A study of Mus musculus with 12 samples.

Results

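The cytochrome P450 genes Cyp2b9, Cyp2b10, Cyp2b13 and Cyp2b23 and their receptor gene Nr1i3, which encodes the constitutive androstane receptor (CAR), were followed in mouse liver. They are 5 of the 36095 genes on the array and were taken as every probe that carries one of these names, 6 probes of 55681 in all. Whole livers of BALB/c mice came from 4 groups of 3 arrays each: wild type at 6 weeks of age, wild type at 12 weeks, interleukin-18 (Il18) knockout at 6 weeks and Il18 knockout at 12 weeks. No group was treated, and all shared the BALB/c background. The labels name the 3 samples of a group biological replicates. The part of Il18 that was deleted, the sex of the mice, their feeding state and the hour at which livers were taken are not given in the sources used here.

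CAR is a nuclear receptor of hepatocytes. It is held in the cytosol by chaperones and, on activation by phenobarbital-type drugs, bile pigments or changes in growth factor signalling, is dephosphorylated, enters the nucleus and binds DNA together with the retinoid X receptor. Cyp2b10 is its classical target in mouse liver and is used as the readout of its activity. Cyp2b enzymes oxidise drugs, steroids and fatty acids. Cyp2b9 and Cyp2b13 are known as genes with higher expression in female than in male adult mouse liver, a difference set by the pattern of growth hormone secretion.

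The 4 Cyp2b genes lie in one cluster on chromosome 7. In the mm9 coordinates of the array files, the Cyp2b10 probe lies at chr7:26711522-26711581, the Cyp2b13 probe at chr7:26880905-26880964, the Cyp2b9 probe at chr7:26983484-26983543 and the Cyp2b23 probe at chr7:27450250-27450309. The probes of Nr1i3 lie on chromosome 1, probe 1 at chr1:173147776-173147835 and probe 2 at chr1:173148765-173148824. Each probe is 60 bases long and starts at base 717 of the listed Cyp2b9 transcript, base 1750 for Cyp2b10, base 1565 for Cyp2b13, base 2118 for Cyp2b23, and bases 1070 and 1202 for Nr1i3. The sequences are shown because the Cyp2b genes are close paralogues, so that what a probe can tell apart depends on its letters. The whole probe is given for Cyp2b9 and Nr1i3, and 30 bases for the others, which start beyond base 1500 of their transcripts. Capitals mark a run of a repeated unit of 4 bases, which only the Cyp2b23 probe holds.
Cyp2b9: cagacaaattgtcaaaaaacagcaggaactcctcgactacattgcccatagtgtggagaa
Cyp2b10, bases 1 to 30: cacttatcagctctccatgatctgggatct
Cyp2b13, bases 1 to 30: agagctgctggaaactagactgtatgttgc
Cyp2b23, bases 16 to 45: aggactgacagAATCAATCAATCAATCAAT
Nr1i3, probe 1: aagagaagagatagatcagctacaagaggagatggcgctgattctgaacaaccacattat
Nr1i3, probe 2: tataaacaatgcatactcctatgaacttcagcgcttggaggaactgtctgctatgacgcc
No other probe on the array shared a run of 15 bases with the probe of Cyp2b9, Cyp2b10 or Cyp2b13. In the Cyp2b23 probe the repeat runs over 34 of the 60 bases, and 1 probe of another gene shared a run of 29 bases with it. Whether a probe also binds the RNA of a paralogue was not examined, since no transcript sequences were used here.

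The promoters show how alike these genes are at their starts. RefSeq windows (build GRCm38.p6, plus strand for the 3 genes printed) of 300 bases, 250 before and 50 after the start site, were found for all 5 members. The window of Cyp2b9 was identical to that of Cyp2b13 at 298 of 300 bases (99.3%). Cyp2b10 matched Cyp2b9 at 223 of 289 aligned bases (77.2%) and Cyp2b23 at 222 of 261 (85.1%). As shares of the whole window of 300 bases these matches were 74.3% and 74.0%. The 150 bases before the start are printed for the 3 genes whose levels moved most, with the hexamer AGGTCA, a core binding sequence of nuclear receptors, in capitals. They are read from the reference genome and not from BALB/c mice.
Cyp2b9, chr7:26173259-26173408: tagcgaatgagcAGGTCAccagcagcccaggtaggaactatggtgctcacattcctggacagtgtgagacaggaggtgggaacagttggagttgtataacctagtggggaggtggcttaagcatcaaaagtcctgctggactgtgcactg
Cyp2b13, chr7:26061345-26061494: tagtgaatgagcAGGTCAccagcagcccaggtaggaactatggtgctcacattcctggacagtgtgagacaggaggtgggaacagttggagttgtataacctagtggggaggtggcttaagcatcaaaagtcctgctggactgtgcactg
Cyp2b10, chr7:25897508-25897657: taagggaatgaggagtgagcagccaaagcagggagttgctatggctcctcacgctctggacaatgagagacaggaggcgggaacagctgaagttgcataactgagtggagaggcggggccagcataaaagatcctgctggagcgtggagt
Counted from 1 at the 5′ end of the printed stretch, Cyp2b9 and Cyp2b13 differed by C4T alone. AGGTCA stood once, on the plus strand, from position -138 to -133 in both, and from -164 to -159 in Cyp2b23. Both strands were searched, and 16.3% of 32851 promoters of this length hold AGGTCA. The related hexamer AGTTCA (14.0% of promoters), the D-box of the PAR bZIP factors, spelled TTATGTAA or TTACGTAA (1.1%), the STAT5 palindrome TTCNNNGAA (8.3%) and the TATA box TATAAA (4473 of the 32851) were not matched in the windows of the 5 members. The phenobarbital-responsive enhancer of Cyp2b10 lies farther upstream than these windows reach.

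Levels are log2 signals relative to the 75th percentile of the same array, so that 0 marks that percentile. A gene is called where limma's moderated test over 22128 genes gave a Benjamini-Hochberg adjusted p under 0.05. Il18 itself was lower in the knockout, by -2.54 ± 0.11 (SE) at 6 weeks (limma adjusted p = 2.47e-06) and by -2.34 ± 0.11 at 12 weeks (limma adjusted p = 1.10e-05), and its probe stayed well above background on all 6 knockout arrays. All 10 hepatocyte markers, among them albumin (Alb), were well above background on 12 of 12 arrays, and their summed level, as a multiple of the 75th percentile, was 4825 to 6023. Xist, the RNA of the inactive X chromosome, was well above background on 0 of 12 arrays, while the Y-linked genes Ddx3y, Eif2s3y and Uty were on 12 and Kdm5d on 0; these genes were chosen after their values had been seen. Of the called genes 55.6% were higher in the knockout at 6 weeks and 68.8% at 12 weeks. With the 75th percentile taken over probes detected on all arrays these shares were 44.0% and 49.1%, and 40.5% in place of 61.8% for the average of the ages. Between 50.1% and 57.7% of spots were well above background. Arrays of different groups correlated at 0.981 to 0.992 over all genes and arrays of one group at 0.987 to 0.996. Slide 1 held the 3 arrays of 6-week wild type and replicate 1 of 12-week wild type, and slide 2 held the other 8, so that at 6 weeks genotype and slide cannot be told apart except through that single 12-week array.

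Of the 5 members, 4 were tested, since all 3 arrays of some group showed their probe well above background. All 4 were highest in 6-week wild type liver. Cyp2b9 and Cyp2b13 were near or at background in the other 3 groups, while Cyp2b10 and Nr1i3 stayed well above background on every array. By the group means Cyp2b10 was 51.8-fold lower in 6-week knockout than in 6-week wild type liver, and the receptor gene 2.11-fold lower. Cyp2b9 and Cyp2b13 were lower too, but they were tested only because 6-week wild type was bright. At 12 weeks none of the 4 passed the test between genotypes.

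**Figure D1:**
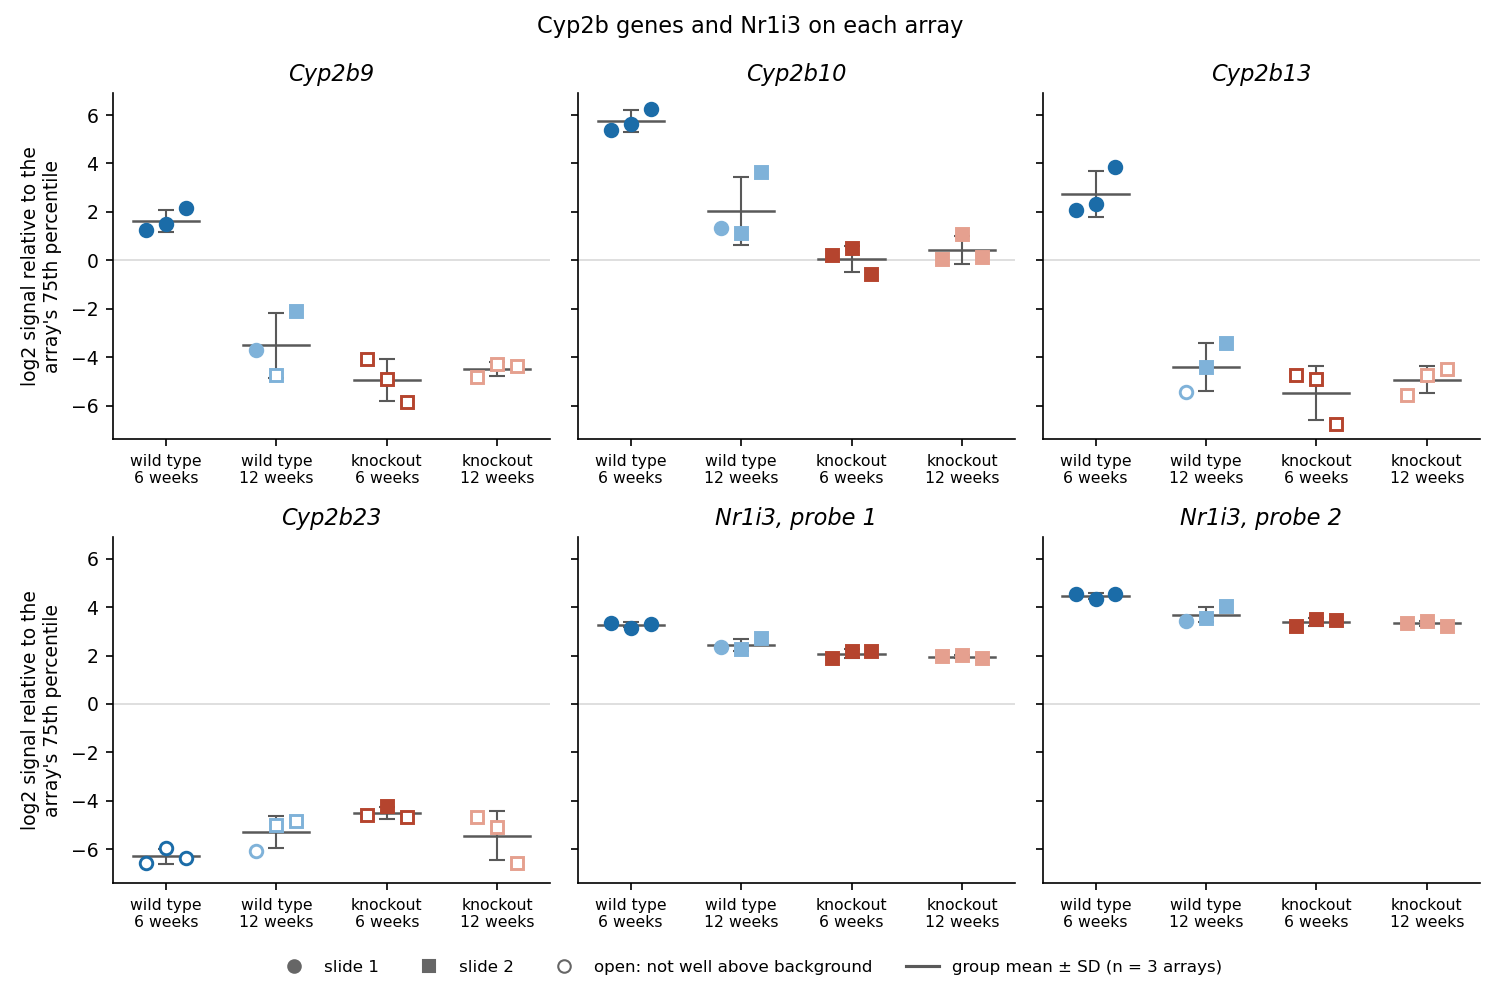
Log2 signal relative to the array's 75th percentile (vertical axis) on each of the 12 arrays for the 6 probes, by group. Filled points are well above background, circles are slide 1 and squares slide 2, and the bars are the group mean ± SD of 3 arrays. The 3 arrays of 6-week wild type lie above the other 9 in every panel but that of Cyp2b23, whose points are near the background on all arrays.

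Nr1i3, the receptor, was well above background on all 12 arrays with both probes. Probe 2, the brighter, stands for the gene. Its levels in 6-week wild type were 4.52, 4.32 and 4.56, and in 6-week knockout they were 3.21, 3.50 and 3.46. In 12-week wild type they were 3.45, 3.57 and 4.06, and in 12-week knockout 3.33, 3.44 and 3.23. Every 6-week wild type array was above the other 9, with a gap of 0.26. The values of 12-week wild type ended just above those of 12-week knockout, by 0.0059, and those of the knockout ages overlapped. Probe 1 gave the same order: its means were 3.27 ± 0.10 (SD, n = 3) in 6-week wild type, 2.44 ± 0.25 in 12-week wild type, 2.08 ± 0.18 in 6-week knockout and 1.96 ± 0.07 in 12-week knockout.

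Cyp2b10, the main CAR target of the family, was well above background on all 12 arrays and spanned 111-fold between its lowest and its highest array. In 6-week wild type its levels were 5.37, 5.64 and 6.24, and in 6-week knockout 0.22, 0.50 and -0.56. In 12-week wild type they were 1.34, 1.14 and 3.65, and in 12-week knockout 0.07, 1.09 and 0.12. The 6-week wild type arrays stood 1.72 above every other array. In 12-week wild type, replicates 1 and 2 lay close to the knockout arrays and replicate 3 stood well above them.

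Cyp2b9 was well above background on 5 arrays, the 3 of 6-week wild type and replicates 1 and 3 of 12-week wild type. Its levels were 1.25, 1.49 and 2.14 in 6-week wild type and -3.71, -4.75 and -2.09 in 12-week wild type. They were -4.07, -4.92 and -5.84 in 6-week knockout and -4.80, -4.30 and -4.37 in 12-week knockout, where no array was well above background. The 6-week wild type arrays stood 3.33 above all others. The levels of the other 3 groups overlapped.

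Cyp2b13 likewise was well above background on 5 arrays, the 3 of 6-week wild type and replicates 2 and 3 of 12-week wild type. In 6-week wild type its levels were 2.08, 2.33 and 3.84, and in 12-week wild type -5.43, -4.40 and -3.43. In 6-week knockout they were -4.76, -4.91 and -6.75, and in 12-week knockout -5.56, -4.72 and -4.51. The gap below the 6-week wild type arrays was 5.51, the rank 2 gap of its kind among 22122 genes. Cyp2b9 took rank 5, Cyp2b10 rank 22 and Nr1i3 rank 220. Cyp2b9 and Cyp2b13 were tested only because 6-week wild type was bright, so their ranks use the same property that let them in. Over all genes, 5.29% had every 6-week wild type array above all 9 others.

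Cyp2b23, which was left out of the test, was well above background on 1 of 12 arrays, replicate 2 of 6-week knockout. Its levels were -6.55, -5.95 and -6.38 in 6-week wild type, -6.06, -5.00 and -4.83 in 12-week wild type, -4.60, -4.20 and -4.68 in 6-week knockout and -4.69, -5.06 and -6.59 in 12-week knockout. No fold is given, since both sides of each comparison were at background. In a fit of every probe with no filter on dim probes the 6-week difference, knockout minus wild type, was 1.80 ± 0.48 (SE, limma adjusted p = 0.0555), opposite in sign to those of Cyp2b9, Cyp2b10 and Cyp2b13. With 1 probe for each gene and no filter that difference passed the test.

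The comparison of the genotypes at 6 weeks asked how loss of Il18 was related to these genes in young mice. All 4 tested members were lower in the knockout. Cyp2b9 and Cyp2b13 passed the filter on dim probes only through 6-week wild type, where they are high, so their direction was set by the filter and their count supports nothing. Cyp2b10 and Nr1i3 passed it in every group. The count stands against 21.1% of all genes called in either direction, 11.7% higher and 9.35% lower. Cyp2b10 was 51.8-fold lower, a difference of -5.70 ± 0.60 (SE; 95% interval -7.04 to -4.35, limma adjusted p = 0.000302). Cyp2b9 was at least 63.4-fold lower, with a fitted difference of -6.57 ± 0.61 (limma adjusted p = 0.000163). Cyp2b13 was at least 145-fold lower, with a fitted difference of -8.22 ± 0.67 (limma adjusted p = 8.19e-05). These bounds set the mean of the bright group against the lowest signal that was well above background on each array of the dim group, or the probe's own signal where that was higher. They concern the limit of detection only and do not include the spread between arrays. Nr1i3 was 2.11-fold lower, with a difference of -1.08 ± 0.15 (95% interval -1.42 to -0.74, limma adjusted p = 0.00158), and probe 1 gave -1.18 ± 0.13. In none of the 4 did the groups overlap, and over all genes 47.9% did not overlap either, 22.5% with the knockout lower. With background correction by normexp the sizes shrank for the dim genes, to -3.82 for Cyp2b9 and -5.19 for Cyp2b13, and the 4 calls held. With slide as a fixed block, where the slide effect rests on the single 12-week wild type array on slide 1, the differences were -6.86 for Cyp2b9, -6.76 for Cyp2b10, -9.73 for Cyp2b13 and -1.44 for Nr1i3, with limma adjusted p from 0.00490 to 0.0232, while the share of genes called fell to 2.66%.

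At 12 weeks none of the 4 members was called, against 8.21% of all genes called by limma in either direction, 5.65% higher and 2.56% lower. Cyp2b10 had the largest difference of the 4, -1.62 ± 0.60 (95% interval -2.96 to -0.28; unadjusted p = 0.0226 and limma adjusted p = 0.128). Its groups did not overlap but were only 0.056 apart, and 27.4% of all genes did not overlap, 9.87% with the knockout lower. Nr1i3 differed by -0.36 ± 0.15 (95% interval -0.70 to -0.02; unadjusted p = 0.0423 and limma adjusted p = 0.181). Cyp2b9 differed by -0.98 ± 0.61 (95% interval -2.34 to 0.39, limma adjusted p = 0.359) and Cyp2b13 by -0.51 ± 0.67 (95% interval -2.00 to 0.98, limma adjusted p = 0.684), with overlapping groups. At an unadjusted p under 0.05, 2 of the 4 passed. The share of all genes at that threshold is not given here, so this count supports nothing. Replicate 3 of 12-week wild type was the highest array of its group for all 4 members, and without it the difference was -0.82 for Cyp2b10, -0.26 for Cyp2b9, -0.02 for Cyp2b13 and -0.17 for Nr1i3. Within slide 2, which holds 2 wild type and 3 knockout arrays of this age, the difference was -1.97 for Cyp2b10 (limma adjusted p = 0.174), -1.01 for Cyp2b13 and -0.48 for Nr1i3, and Cyp2b9 did not pass the filter on dim probes there.

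Averaged over both ages, all 4 were lower in the knockout, against 20.6% of genes called, 12.7% higher and 7.86% lower. Cyp2b9 and Cyp2b13 passed the filter on dim probes only through the younger wild type group. Their direction was thus set by the filter, and their part of this count supports nothing. For each of the 4 the genotype difference was larger at the younger age, and none was called at the older age. The average therefore does not show a difference at both ages. The mean differences were -3.77 ± 0.43 (SE) for Cyp2b9, -3.66 ± 0.43 for Cyp2b10, -4.37 ± 0.48 for Cyp2b13 and -0.72 ± 0.11 for Nr1i3, with limma adjusted p between 0.000713 and 0.00290. With normexp they were -2.03 for Cyp2b9 and -2.62 for Cyp2b13.

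With age, the members fell in wild type and did not pass the test in the knockout. From 6 to 12 weeks in wild type all 4 were lower, against 9.03% of genes called in either direction, 4.61% higher and 4.43% lower. The ages did not overlap for any of the 4, nor for 26.0% of all genes. Cyp2b10 fell by 3.70 ± 0.60 on the log2 scale (13.0-fold, limma adjusted p = 0.00626), Cyp2b9 by 5.14 ± 0.61 (limma adjusted p = 0.00129) and Cyp2b13 by 7.17 ± 0.67 (limma adjusted p = 0.000327). For Cyp2b9 and Cyp2b13, 2 of the 3 older arrays were well above background, so the older mean partly rests on signals near background and no fold is given. Both passed the filter only through the younger group. With normexp the differences were -3.52 and -5.08. Nr1i3 fell by 0.78 ± 0.15 (1.71-fold, limma adjusted p = 0.0140), and this call was lost without replicate 3 of 6-week wild type (limma adjusted p = 0.0513) or without replicate 2 of 12-week wild type (limma adjusted p = 0.0546). Within slide 1, which holds 3 younger arrays and 1 older array of wild type, the differences were -5.34 for Cyp2b9 (limma adjusted p = 0.0410), -4.41 for Cyp2b10 (0.0462), -8.18 for Cyp2b13 (0.0513) and -1.02 for Nr1i3 (0.0981). The lone older array is assumed there to vary like the others. In the knockout none of the 4 was called from 6 to 12 weeks, against 6.91% of genes, 3.98% higher and 2.93% lower. The ages overlapped for all 4, while 31.9% of all genes did not overlap. The differences were 0.45 ± 0.61 for Cyp2b9, 0.37 ± 0.60 for Cyp2b10, 0.54 ± 0.67 for Cyp2b13 and -0.05 ± 0.15 for Nr1i3, and at an unadjusted p under 0.05 none passed either. For Cyp2b9 and Cyp2b13 both knockout groups were at background, so no fold is given.

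**Figure D2:**
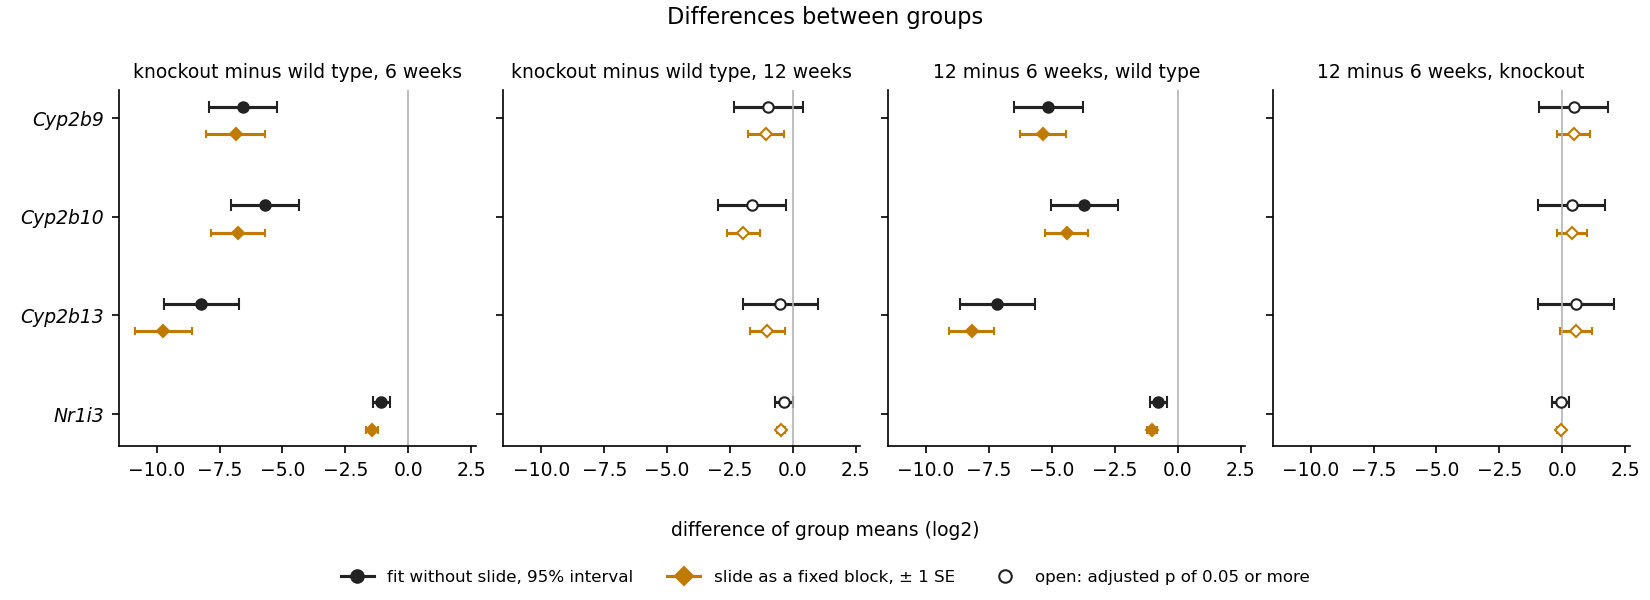
Differences of group means (log2, horizontal axis) for the 4 tested members in the 4 comparisons, with 95% intervals in black and the fit with slide as a fixed block ± 1 SE in orange; open symbols have an adjusted p of 0.05 or more. The 6-week genotype differences and the wild type age differences lie below 0 for every member, while the intervals of the knockout age differences all span 0.

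The genotype difference at 12 weeks minus that at 6 weeks tested whether the ages differed. It passed the test for Cyp2b9 (5.59 ± 0.87, SE, limma adjusted p = 0.00391), Cyp2b10 (4.08 ± 0.85, limma adjusted p = 0.0147) and Cyp2b13 (7.71 ± 0.95, limma adjusted p = 0.00128), against 10.3% of all genes, 5.58% higher and 4.76% lower. Cyp2b9 and Cyp2b13 passed the filter on dim probes only through 6-week wild type, so their direction was set by the filter. With normexp the difference was 3.58 for Cyp2b9 and 5.15 for Cyp2b13, and both calls held. For Nr1i3 it was 0.72 ± 0.22 with a limma adjusted p of 0.0617, and with probe 1 it was 0.70 ± 0.19 with a limma adjusted p of 0.0438. Without replicate 3 of 12-week wild type it was 0.90 for Nr1i3 (limma adjusted p = 0.00791).

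The order of the groups was thus 6-week wild type, 12-week wild type and then the knockout groups for each tested member. The step from 6-week to 12-week wild type passed the test for each of them. For Cyp2b9 and Cyp2b13 its direction was set by the filter on dim probes. For Nr1i3 the call was lost without replicate 3 of 6-week wild type or without replicate 2 of 12-week wild type. Neither the genotype difference at 12 weeks nor the age difference in the knockout passed the test over all genes. The step from 12-week wild type to 6-week knockout was not tested. The members were also correlated when the groups were pooled. After the group means were taken off, the correlation over the 12 arrays was 0.86 between Cyp2b9 and Cyp2b10, 0.73 between Cyp2b10 and Cyp2b13, 0.72 between Cyp2b9 and Cyp2b13 and 0.75 between Cyp2b10 and Nr1i3. With Nr1i3 it was 0.42 for Cyp2b9 and 0.38 for Cyp2b13. These values share the arrays and their scaling, and those of Cyp2b9 and Cyp2b13 include signals near background. They do not show covariation inside each group, and other gene pairs were not compared. In 12-week wild type replicate 3 stood above the other replicates, at 3.65 for Cyp2b10 and 4.06 for Nr1i3. In 6-week knockout replicate 3 was lowest for Cyp2b10 (-0.56) but replicate 1 was lowest for Nr1i3 (3.21). In 6-week wild type, replicate 3 was the highest of the group for Cyp2b9, Cyp2b10, Cyp2b13 and probe 2 of Nr1i3. In 6-week knockout, replicate 3 was the lowest for the 3 Cyp2b genes.

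Genes outside the family and its receptor whose levels ran most like a member over the 12 arrays were ranked by Pearson correlation, a description that rests mainly on the contrast between 6-week wild type and the other 9 arrays. Over the same arrays the members correlated with each other at 0.923 to 0.980, in part above the genes named here. For Cyp2b10 the nearest genes were Tafa2 (0.972), Cenpw (0.967) and Rnf145 (0.963). For Cyp2b9 they were Tafa2 (0.978), Pif1 (0.966) and Rnf145 (0.962). For Cyp2b13 they were Gsto1 (0.978), a glutathione transferase, Hao2 (0.975), a peroxisomal hydroxyacid oxidase, and Slc22a27 (0.974), an organic anion transporter gene. For Nr1i3 they were Neu1 (0.973), a lysosomal sialidase, Ebag9 (0.967) and Cenpw (0.965). Among these genes Tafa2 was well above background on 4 arrays and Hao2 on 3.

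Among the other receptors and factors that act with CAR, few moved as Nr1i3 did. Of 16 genes on that list, all tested, 0 were higher and 2 lower in the knockout at 6 weeks: Nr1i3 itself and Cebpa, a liver transcription factor (-0.47 ± 0.08, SE, limma adjusted p = 0.00321). The median of the list was -0.02 against 0.02 over all genes. Of this list 12.5% were lower at 6 weeks, against 9.35% lower and 11.7% higher over all genes. Rxra, the DNA-binding partner of CAR, differed by -0.15 (limma adjusted p = 0.264), the related receptor Nr1i2 (PXR) by 0.19 (0.286) and Hnf4a, an activator of Cyp2b10 and Nr1i3, by 0.0017 (0.992); these 3 were chosen after their values were seen. At 12 weeks Cebpa was higher (0.32 ± 0.08, limma adjusted p = 0.0321) and Foxa3 lower (-0.53 ± 0.11, limma adjusted p = 0.0181). With age in wild type, Nr1i3 and Nr0b2 (-1.32 ± 0.30, limma adjusted p = 0.0238), a corepressor of nuclear receptors, were lower. With age in the knockout Cebpa was higher (0.65 ± 0.08, limma adjusted p = 0.00129) and Nr0b2 lower (-1.41 ± 0.30, limma adjusted p = 0.0216).

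Of the 18 genes of the cytosolic complex and the signalling that holds or frees CAR, 4 were higher and 0 lower in the knockout at 6 weeks, with a median of 0.22. This is 22.2% of the list, near the 21.1% of all genes called in either direction, 11.7% higher and 9.35% lower. The 4 were Hsp90aa1, a chaperone of the receptor (0.91 ± 0.19, SE, limma adjusted p = 0.0108), Egfr, the growth factor receptor whose signal keeps CAR phosphorylated (0.97 ± 0.28, limma adjusted p = 0.0367), Psmc4 (0.28 ± 0.07, limma adjusted p = 0.0270) and Map2k1 (0.23 ± 0.07, limma adjusted p = 0.0365). At 12 weeks 1 was lower, Gadd45b, a CAR-induced partner of the receptor (-1.19 ± 0.21, limma adjusted p = 0.0108). This is 5.56% of the list, against 2.56% of all genes lower and 5.65% higher. In wild type Hsp90aa1 (0.84 ± 0.19, limma adjusted p = 0.0268) and Psmc4 (0.28 ± 0.07, limma adjusted p = 0.0463) were higher at 12 than at 6 weeks.

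Known target genes of CAR outside the Cyp2b family were mostly lower too. Of 51 listed, 46 were tested, and in the knockout at 6 weeks 25 were lower and 3 higher, with a median difference of -0.62 against 0.02 over all genes. Of all genes 9.35% were lower and 11.7% higher. Among the 25 was Sult3a1, which entered the test only through 6-week wild type. The smallest p belonged to Akr1b7, an aldo-keto reductase (-2.26 ± 0.17, SE, limma adjusted p = 4.08e-05), Cyp2c37 (-1.11 ± 0.11, limma adjusted p = 0.000192), Abcb1a, a drug export pump (-2.12 ± 0.24, limma adjusted p = 0.000425), and Gstt3, a glutathione transferase (-2.00 ± 0.23, limma adjusted p = 0.000538). Each of these differences was smaller than those of the 3 Cyp2b genes. With slide as a fixed block 6 of the 46 were called, all lower, against 2.66% of all genes called in either direction. At 12 weeks 8 were lower and 2 higher (median -0.16), with Ccnd1, a cell cycle gene (-2.10 ± 0.30, limma adjusted p = 0.00443), Gadd45b, Cyp2c55 (-1.27 ± 0.23, limma adjusted p = 0.0109) and Ugt2b35 (-0.48 ± 0.09, limma adjusted p = 0.0113) leading. Of all genes 2.56% were lower and 5.65% higher at 12 weeks. The count of targets called at 12 weeks was 3 without replicate 3 of 12-week knockout, 5 without its replicate 1 or 2, and 6 without replicate 2 of 6-week wild type. Of all genes 3.07% were called without replicate 3 of 12-week knockout, and 3.26% and 4.58% without its replicates 1 and 2. That share was 5.73% without replicate 2 of 6-week wild type and 8.21% with all arrays.

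With age in wild type, 14 of the 46 targets were lower and 3 higher, with a median of -0.15. Of all genes 4.43% were lower and 4.61% higher. Akr1b7 (-2.28 ± 0.17, SE, limma adjusted p = 8.34e-05) and Cyp2c37 (-0.80 ± 0.11, limma adjusted p = 0.00266) fell, and Cyp2c55 (1.82 ± 0.23, limma adjusted p = 0.00172) and Abcg2, an export pump (0.79 ± 0.10, limma adjusted p = 0.00201), rose. The count was 11 without replicate 3 of 6-week wild type or without replicate 2 of 12-week wild type, and 9 with slide as a fixed block. In these fits, in that order, 4.77%, 4.44% and 3.29% of all genes were called. In the knockout 6 targets rose with age and 1 fell, among them Gstt3 (1.59 ± 0.23, limma adjusted p = 0.00418), Cyp2a4 (1.55 ± 0.26, limma adjusted p = 0.00741), Gstt1 (0.54 ± 0.10, limma adjusted p = 0.0142) and Gsta2 (1.33 ± 0.30, limma adjusted p = 0.0280), whereas no Cyp2b gene was called there. Of all genes 3.98% were higher and 2.93% lower with age in the knockout. The count of 7 targets was 2 to 4 without replicate 1, 2 or 3 of 6-week knockout or replicate 2 or 3 of 12-week knockout. In those fits 2.73% to 3.83% of all genes were called. The genotype comparisons and the age comparisons share groups of arrays, so their lists are not independent of each other.

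**Figure D3:**
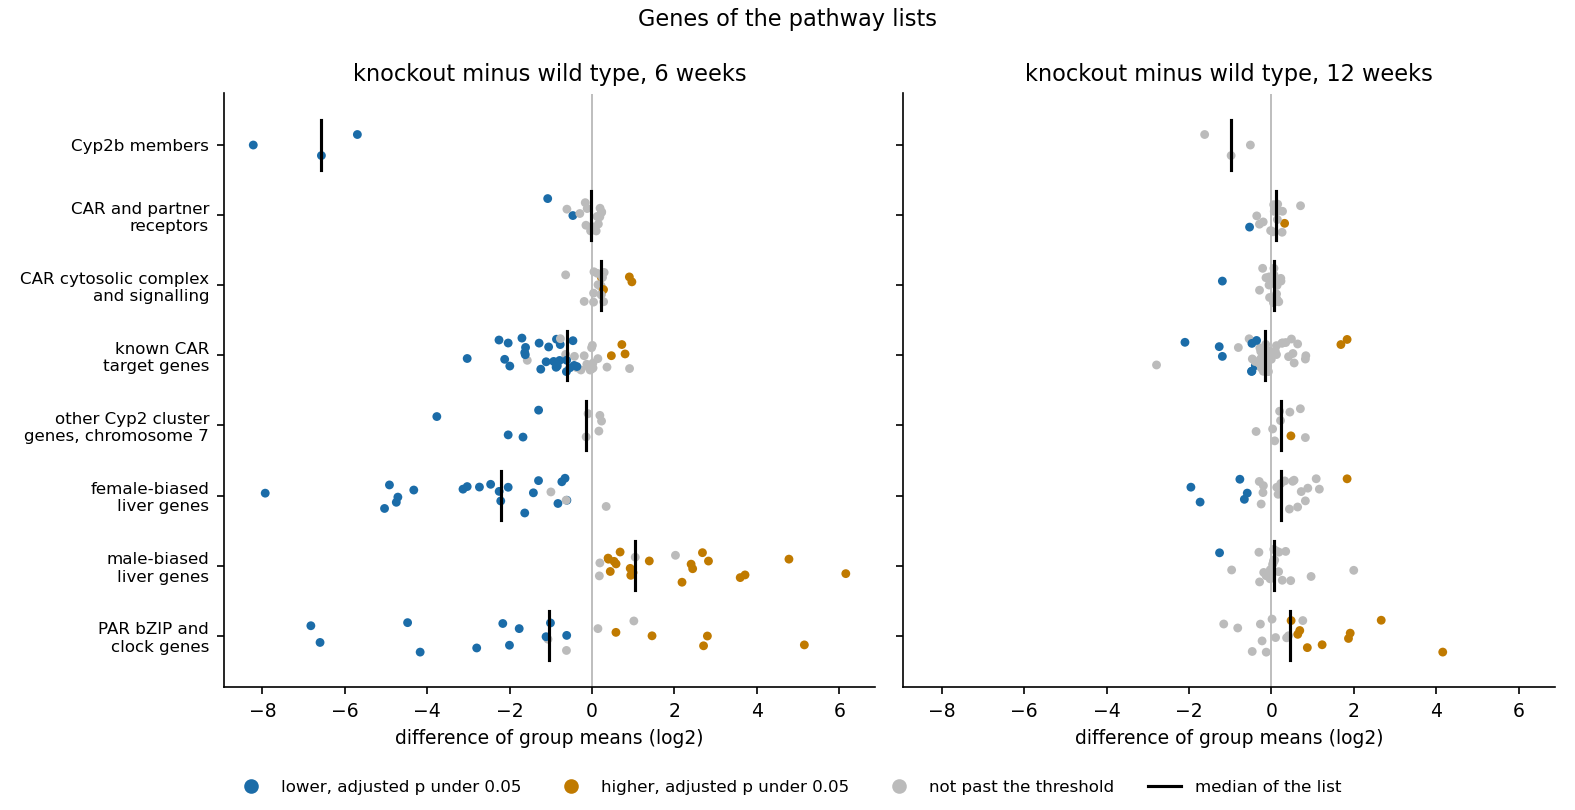
Differences between knockout and wild type (log2, horizontal axis) for each tested gene of 8 lists at 6 and at 12 weeks; blue genes were called lower and orange genes higher, grey genes did not pass the test, and the black bar is the median of the list. At 6 weeks the 3 Cyp2b genes lie below -5, the CAR targets have a median of -0.62, the female-biased genes -2.22 and the male-biased genes 1.05.

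The Cyp2b genes have neighbours of the same cluster on chromosome 7. In the knockout at 6 weeks 9.35% of all genes were lower and 11.7% higher. Of 9 tested genes of that cluster outside the family, 4 were lower and 0 higher there. These were Cyp2a22, which entered the test only through 6-week wild type (-3.77 ± 0.38, SE, limma adjusted p = 0.000214), Cyp2a4, a steroid hydroxylase (-2.04 ± 0.26, limma adjusted p = 0.000842), Cyp2g1 (-1.68 ± 0.42, limma adjusted p = 0.0204) and Cyp2s1 (-1.30 ± 0.36, limma adjusted p = 0.0290). The other 5 were not called, and their differences ran from -0.14 for Cyp2t4 to 0.23 for Rab4b, with Cyp2f2, an abundant hepatocyte P450, at 0.19 and Cyp2a12 at 0.17. These were named after their values were seen. At 12 weeks Cyp2a12 alone was called, and it was higher (0.47 ± 0.08, limma adjusted p = 0.00922). Of all genes 5.65% were higher and 2.56% lower at that age. In wild type with age, Cyp2a22 (-3.33 ± 0.38, limma adjusted p = 0.000881), Cyp2a4 (-1.31 ± 0.26, limma adjusted p = 0.0139) and Cyp2a12 (-0.35 ± 0.08, limma adjusted p = 0.0282) fell, and in the knockout Cyp2a4 and Cyp2s1 (1.35 ± 0.36, limma adjusted p = 0.0490) rose. Cyp2a4 also stands on the lists of CAR targets and of female-biased genes.

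Cyp2b9 and Cyp2b13 belong to the sex-biased genes of mouse liver, and other genes of that kind moved with them. Of 23 tested female-biased genes, members left out, 20 were lower and 0 higher in the knockout at 6 weeks (median -2.22). Of all genes 9.35% were lower and 11.7% higher there. Hao2, Slc22a26, Sult3a1 and Cyp3a44 entered the test only through 6-week wild type and so had to be lower, and of the other 19 genes 16 were lower. Hao2 was at least 12.9-fold lower (limma adjusted p = 3.70e-05), Cyp39a1 differed by -1.42 ± 0.12 (SE, limma adjusted p = 8.41e-05) and Fmo1, a flavin monooxygenase, by -0.83 ± 0.09 (limma adjusted p = 0.000413). Of 23 male-biased genes 19 were higher and 0 lower (median 1.05), led by C6, a complement component (3.71 ± 0.16, limma adjusted p = 2.12e-06), Elovl3, a fatty acid elongase (6.16 ± 0.34, limma adjusted p = 9.47e-06), Cyp7b1 (3.60 ± 0.21, limma adjusted p = 9.98e-06) and Hsd3b5 (2.83 ± 0.22, limma adjusted p = 6.43e-05). At 12 weeks 5 female-biased genes were lower and 1 higher while the median of the list was 0.23, and of the male-biased genes 1 was lower. Of all genes 2.56% were lower and 5.65% higher at 12 weeks. In wild type from 6 to 12 weeks 16 female-biased genes fell and 0 rose (12 of the 19 without those 4), while 16 male-biased genes rose and 0 fell. Of all genes 4.43% fell and 4.61% rose in that comparison. In the knockout with age, 3 female-biased genes rose and 1 fell, and 5 male-biased genes fell, against 2.93% of all genes that fell and 3.98% that rose. Every array had Y-linked Ddx3y well above background and Xist not, and these were the same in all 4 groups.

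Growth hormone sets the sexual pattern of these P450 genes through STAT5b. Of 18 tested genes of that pathway 3 were higher and 0 lower in the knockout at 6 weeks, among them the hormone receptor Ghr (0.42 ± 0.07, SE, limma adjusted p = 0.00324) and Stat5b (0.45 ± 0.11, limma adjusted p = 0.0168). This is 16.7% of the list, against 21.1% of all genes called in either direction, 11.7% higher and 9.35% lower. In wild type Bcl6, a repressor of female-biased genes (2.11 ± 0.50, limma adjusted p = 0.0288), rose with age and Prlr, the prolactin receptor (-0.74 ± 0.20, limma adjusted p = 0.0469), fell. In the knockout Socs3 (2.65 ± 0.52, limma adjusted p = 0.0157) rose with age and Prlr (-1.23 ± 0.20, limma adjusted p = 0.00670) fell.

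PAR bZIP factors, the clock-driven factors Dbp, Tef and Hlf, are known activators of Nr1i3 in mouse liver. Of 20 PAR bZIP and clock genes 11 were lower and 5 higher in the knockout at 6 weeks, against 9.35% and 11.7% of all genes. Dbp differed by -6.82 ± 0.26 (SE, limma adjusted p = 6.28e-07), Tef by -2.80 ± 0.19 (limma adjusted p = 2.67e-05), Usp2, a clock output gene, by -4.48 ± 0.29 (limma adjusted p = 2.33e-05) and Nfil3, the opposing repressor, by 2.80 ± 0.13 (limma adjusted p = 3.46e-06). At 12 weeks 9 were higher and 0 lower in the knockout, among them Dbp (1.23 ± 0.26, limma adjusted p = 0.0192) and Usp2 (2.67 ± 0.29, limma adjusted p = 0.00178). In wild type from 6 to 12 weeks, where the members fell, 8 of these genes fell and 3 rose. Dbp differed there by -1.36 ± 0.26 (limma adjusted p = 0.0112) and Usp2 by -3.06 ± 0.29 (limma adjusted p = 0.000361). Of all genes 5.65% were higher and 2.56% lower in the knockout at 12 weeks. With age in wild type 4.61% of all genes rose and 4.43% fell. In the knockout from 6 to 12 weeks Dbp (6.70 ± 0.26, limma adjusted p = 1.17e-06), Tef (2.79 ± 0.19, limma adjusted p = 7.46e-05) and Usp2 (4.09 ± 0.29, limma adjusted p = 9.50e-05) rose and Nfil3 (-2.34 ± 0.13, limma adjusted p = 3.10e-05) fell, whereas Nr1i3 differed by -0.05 ± 0.15 and none of the 4 tested members was called. The hour at which each liver was taken is not given, and the part of time of day in the members' differences was not tested.

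CAR also responds to fasting and is lowered in the acute phase of inflammation. Of 15 fasting response genes 4 were higher and 2 lower in the knockout at 6 weeks, among them Pdk4 (2.36 ± 0.27, SE, limma adjusted p = 0.000426) and G6pc (1.89 ± 0.29, limma adjusted p = 0.00222), which were higher, and Cyp4a14 (-3.86 ± 0.50, limma adjusted p = 0.000904) and Cyp4a10 (-2.23 ± 0.32, limma adjusted p = 0.00167), which were lower. At 12 weeks 4 were lower and 0 higher, including Igfbp1 (-2.66 ± 0.44, limma adjusted p = 0.00791) and G6pc (-1.76 ± 0.29, limma adjusted p = 0.00740). Of 15 acute phase genes 1 was higher, Fga, a fibrinogen chain (0.52 ± 0.10, limma adjusted p = 0.00639), and 1 lower, Lcn2 (-1.26 ± 0.26, limma adjusted p = 0.00992), at 6 weeks, and none was called at 12 weeks. At 6 weeks 26.7% of the fasting list was higher and 13.3% lower, and 6.67% of the acute phase list each way. Over all genes 11.7% were higher and 9.35% lower at 6 weeks, and 5.65% higher and 2.56% lower at 12 weeks.

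Markers of other cells were set beside the members, because in whole liver fewer cells of a type and less RNA per cell cannot be told apart. The summed level of the 10 hepatocyte markers, as a multiple of the 75th percentile, was 5696 to 5828 in 6-week wild type and 5306 to 6023 in 6-week knockout. The 13 pericentral markers, of the lobule zone where CAR targets are strongest, summed to 1534 to 1645 and 1222 to 1436 in the same groups. Cyp2e1, at a log2 level of 9.75 to 10.1, made up most of that sum. At 6 weeks 2 of the 13 were called lower, against 9.35% of all genes. The difference was above 0 for 0 of the 13, with a median of -0.24, against 0.02 over all genes. Erythroid markers differed with genotype at both ages: of 9 listed and 8 on the array, their sum was 102 to 117 in 6-week wild type and 168 to 277 in 6-week knockout, and 106 to 153 and 182 to 252 at 12 weeks. Of 5 tested, 4 were called higher and 1 lower at 6 weeks, and 3 higher at 12 weeks. Natural killer and T cell markers, 14 listed and 13 on the array, summed to 67.8 to 69.8 in 6-week wild type and 47.7 to 64.1 in 6-week knockout, and to 65.9 to 105 and 38.8 to 50.1 at 12 weeks. Cd4, at a log2 level of 4.84 to 6.48, made up most of that sum. Of 10 tested, 1 was higher and 1 lower at 6 weeks, and 0 higher and 4 lower at 12 weeks. Of 4 tested neutrophil and monocyte markers 3 were higher and 1 lower at 6 weeks, and none was called at 12 weeks. Of all genes 11.7% were higher and 9.35% lower at 6 weeks, and 5.65% higher and 2.56% lower at 12 weeks. The part of these cells in the members' differences was not tested.

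**Figure D4:**
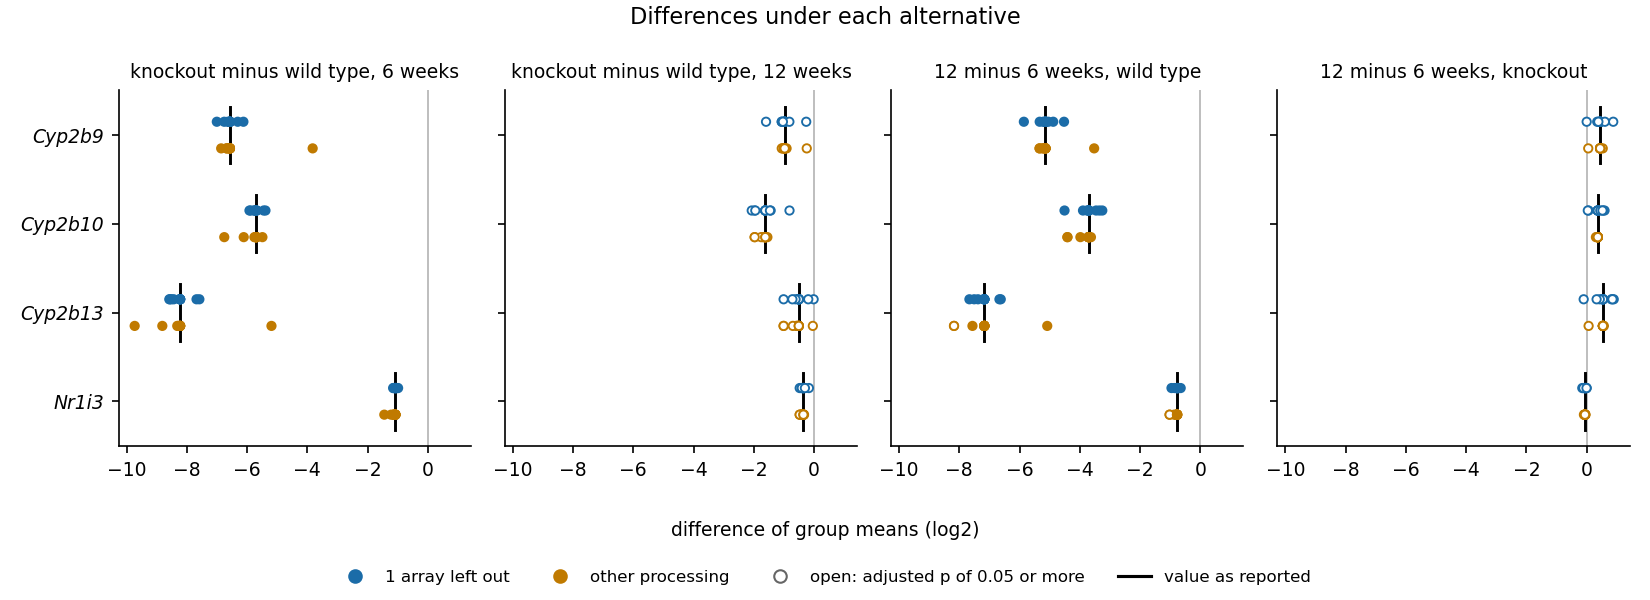
Differences (log2) of the tested members under each alternative of processing and with each array left out in turn. Blue points leave out 1 array, orange points change the processing, open points have an adjusted p of 0.05 or more and the black bar is the value reported. At 6 weeks Cyp2b10 stays between -6.76 and -5.39, whereas the sizes of Cyp2b9 and Cyp2b13 shrink to -3.82 and -5.19 with normexp background correction and its offset of 50.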

How the data were processed

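RNA of 12 whole mouse livers was hybridised to 1-colour Agilent arrays of 62976 spots, 3 for each of 4 groups. The deposited intensity values are those of Agilent Feature Extraction 10.7.3.1, per the file headers, which subtracts background and detrends each array, replaces low values by a surrogate and does not scale between arrays. A deposited table of intensity values holds the same signals rounded, within 0.497% of the scanner values, and served as an alternative.

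Here log2 intensity minus the array's 75th percentile (348.9 to 419.6 before the log) was used. Controls and outlier spots were dropped, and repeated spots of one probe were averaged. Probes well above background in all arrays of some group were kept (29804 probes, 53.5%), and the brightest probe stood for a gene, 22128 genes in all. limma 3.58.1 in R 4.3.3 fitted the 4 group means together, with 8 residual degrees of freedom and Benjamini-Hochberg adjustment over all genes. The fit was tested on simulated data. For 6 genes an outlier spot left a missing value. Only 3 arrays in a group limit the precision. Replicates are called biological in the labels, which name no separate animals, so p-values measure the spread between these samples.

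Promoters were aligned with Biopython 1.88. The 26 alternatives, 12 of them leaving out an array, concern background correction, scaling, the filter on dim probes, the probe chosen, slide, the replicate number and the variance trend. The background correction was normexp with an offset of 50. Named genes were each member, up to 4 list genes a comparison with the smallest p among those called, and the 3 genes outside the members, and with a gene name, most correlated with each; exceptions are stated. The members and lists were chosen with earlier results of these data known. Some genes that this rule selects are not reported here.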

Additional observations from a re-analysis of the deposited data

Results flagged for a closer look

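The genotype difference changed between the ages for 3 members by the test of the difference itself, limma's contrast of the genotype difference at 12 weeks minus that at 6 weeks. It was 5.59 ± 0.87 (SE, log2) for Cyp2b9, with a limma adjusted p of 0.00391. For Cyp2b10 it was 4.08 ± 0.85, with a limma adjusted p of 0.0147. For Cyp2b13 it was 7.71 ± 0.95, with a limma adjusted p of 0.00128. With slide as a fixed block the values were 5.79, 4.78 and 8.72, and with normexp they were 3.58 for Cyp2b9 and 5.15 for Cyp2b13. Both knockout groups were at background for Cyp2b9 and Cyp2b13. Both genes passed the filter on dim probes only through 6-week wild type, so their direction was set by the filter.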

How the results depend on the processing

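No called result changed direction. The age differences in the knockout, which were not called, crossed 0 for Cyp2b13 and Nr1i3 when 1 array was left out, reaching -0.10 and 0.0014. Of the members' values under the alternatives, 562 kept their call, 8 gained one and 4 lost one. With only probes well above background on all arrays, 2 members could be tested, and 2 were called at 6 weeks, 2 averaged over ages, 2 with age in wild type and 1 for the difference between ages. Within slide 1, 2 members were called with age in wild type. Leaving out 1 array at a time gave 4 members called at 6 weeks and averaged over ages, 3 to 4 with age in wild type and for the difference between ages, and 0 in the other comparisons. The difference between ages for Nr1i3 gained its call with normexp (0.77), quantile normalization (0.69), scaling over detected probes (0.71), the mean of the probes (0.71), slide as a fixed (0.97) or random (0.82) block, a variance trend (0.72) and without replicate 3 of 12-week wild type (0.90). The cause was not tested.

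Of the CAR targets called, 28 at 6 weeks became 6 with slide as a fixed block (21 to 30 without 1 array). The 20 averaged over ages became 4 with a fixed and 10 with a random slide block (15 to 20). The 10 at 12 weeks became 4 with no filter on dim probes (3 to 11). The 17 with age in wild type became 9 with a fixed slide block and 2 within slide 1 (11 to 19). The 7 with age in the knockout became 3 with no filter and 11 with a variance trend (2 to 10). Over all genes the share called at 6 weeks went from 21.1% to 2.66% with a fixed slide block. Averaged over ages it went from 20.6% to 1.77% with a fixed and 4.46% with a random block. With no filter it went from 8.21% to 2.29% at 12 weeks and from 6.91% to 2.02% with age in the knockout. A variance trend gave 8.62% with age in the knockout. With age in wild type it went from 9.03% to 3.29% with a fixed block.

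With the replicate number as a block, the 6-week differences kept their size and limma's adjusted p ran from 0.000584 to 0.00387, and no call of a member changed. The numbers do not pair the samples, since 2 of 18 correlations between same-numbered arrays exceeded 0.1 and all lay between -0.086 and 0.18. Signals near background limit the sizes given for Cyp2b9, Cyp2b13 and Cyp2b23.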
